A study of Mus musculus with 16 samples.

Results

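The miRNAs of mouse forebrain neurons were compared between cultures that carried a small hairpin RNA with 5 point mutations (shRNA_5bp) and cultures that carried the same hairpin with 2 point mutations (shRNA_2bp). The comparison rests on 8 of the 16 libraries of the study, 4 with each mutated hairpin, chosen by their labels. It covers every mature miRNA with enough counts to be tested, 483 of the 1978 names in the table. The cells were primary neurons cultured from perinatal mice, and a lentivirus brought in the construct. The remaining libraries came from neurons with the vector without a hairpin (Empty_Vector, 4 libraries) or with the unmutated hairpin (shRNA, 4 libraries), and their levels are given as a background. All 4 groups were transduced, so none shows untreated neurons. The labels name neither the target of the hairpin nor the mutated positions, the promoter that drives it, or whether replicate libraries came from separate cultures. P-values therefore measure only the spread between these libraries, which may be technical.

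An shRNA is transcribed from DNA as a short hairpin and enters the pathway that also makes miRNAs. A miRNA begins as a hairpin in a long primary transcript, which the Microprocessor (Drosha with Dgcr8) cuts in the nucleus, Exportin-5 carries out and Dicer trims to a duplex. One strand is loaded into an Argonaute protein, and its bases 2 to 8, the seed, select the mRNAs that are repressed. An expressed shRNA bypasses the Microprocessor and shares the later steps with the miRNAs of the cell.

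The sequences below are those on which the results turn, written 5′ to 3′ from RefSeq (GRCm38.p6) with the seed in capitals. The first set holds miRNAs that were higher with the 5-mutation hairpin, chosen for shared seeds or shared stretches, of which the miR-7 pair shares a seed and miR-344d-3p, miR-344e-3p and miR-410-3p share another.
miR-7a-5p: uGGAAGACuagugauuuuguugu
miR-7b-5p: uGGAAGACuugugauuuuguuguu
miR-344d-3p: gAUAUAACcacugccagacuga
miR-344e-3p: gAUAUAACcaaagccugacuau
miR-410-3p: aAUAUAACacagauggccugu
miR-495-3p: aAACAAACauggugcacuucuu
miR-543-3p: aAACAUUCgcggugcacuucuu
miR-212-3p: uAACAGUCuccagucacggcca
miR-132-3p: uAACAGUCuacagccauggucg

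MiR-495-3p and miR-543-3p have different seeds and share their last 12 bases. The second set shows close relatives with the same seed whose values are set side by side in the results. MiR-99a-5p and miR-100-5p differ by 1 base (U16A, counted from the 5′ end of miR-99a-5p), and let-7a-5p and let-7c-5p also by 1 base (A19G, counted from the 5′ end of let-7a-5p). How reads that fit both members of such a pair were assigned is not given in the sources used here. Among the tested names 14 fell into 7 sets with identical counts, so names can share reads. Such reads may have been divided or counted under each name, so the split within a pair and sums over relatives are uncertain.
miR-99a-5p: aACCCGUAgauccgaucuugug
miR-100-5p: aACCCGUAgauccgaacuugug
let-7a-5p: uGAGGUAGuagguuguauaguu
let-7c-5p: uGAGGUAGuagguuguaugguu
let-7i-5p: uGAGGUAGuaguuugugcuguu

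The third set holds miRNAs that were lower with the 5-mutation hairpin, in pairs that share a seed.
miR-34a-5p: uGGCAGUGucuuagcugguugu
miR-34b-5p: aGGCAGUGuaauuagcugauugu
miR-34b-3p: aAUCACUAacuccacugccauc
miR-34c-3p: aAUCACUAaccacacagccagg
miR-92b-3p: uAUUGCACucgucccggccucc
miR-25-3p: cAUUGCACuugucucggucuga

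The libraries with shRNA_2bp held 1177068 to 2097782 miRNA counts and those with shRNA_5bp 831859 to 2496036, against 2760894 to 11139163 in the other 8. Totals did not separate the mutated hairpins (n = 4 each, two-sided exact permutation p = 0.743). A detection floor of 3 counts corresponds to 1.20 to 3.61 CPM in these libraries, where CPM stands for a count relative to a fixed library size. Neuronal miRNAs dominated all of them, with miR-128-3p alone at 23.9 to 28.1% of counts. Levels below are CPM scaled between libraries, except for sums marked as unscaled. Differences are log2(shRNA_5bp/shRNA_2bp) with their standard error (SE).

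In all, 288 of 483 miRNAs (59.6%) passed the test at an adjusted p below 0.05, 178 of them higher (36.9%) and 110 lower (22.8%) with the 5-mutation hairpin. More than 2-fold differences numbered 81 upward (16.8%) and 31 downward (6.42%). The libraries of the 2 groups did not overlap for 256 miRNAs (53%), 158 higher (32.7%) and 98 lower (20.3%). The median over all tested miRNAs was 0.16 on the log2 scale. That median was 0.09 with DESeq2 size factors, 0.22 with library totals alone and 0.01 without shRNA_5bp library 4, and the share of rises among the calls was 61.8%, but 53.4% without that library. When only the 8 libraries were fitted, 399 miRNAs were tested, 124 were higher and 126 lower (49.6% higher), and the median was 0.01. Small differences below should be read against these shifts.

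**Figure D1:**
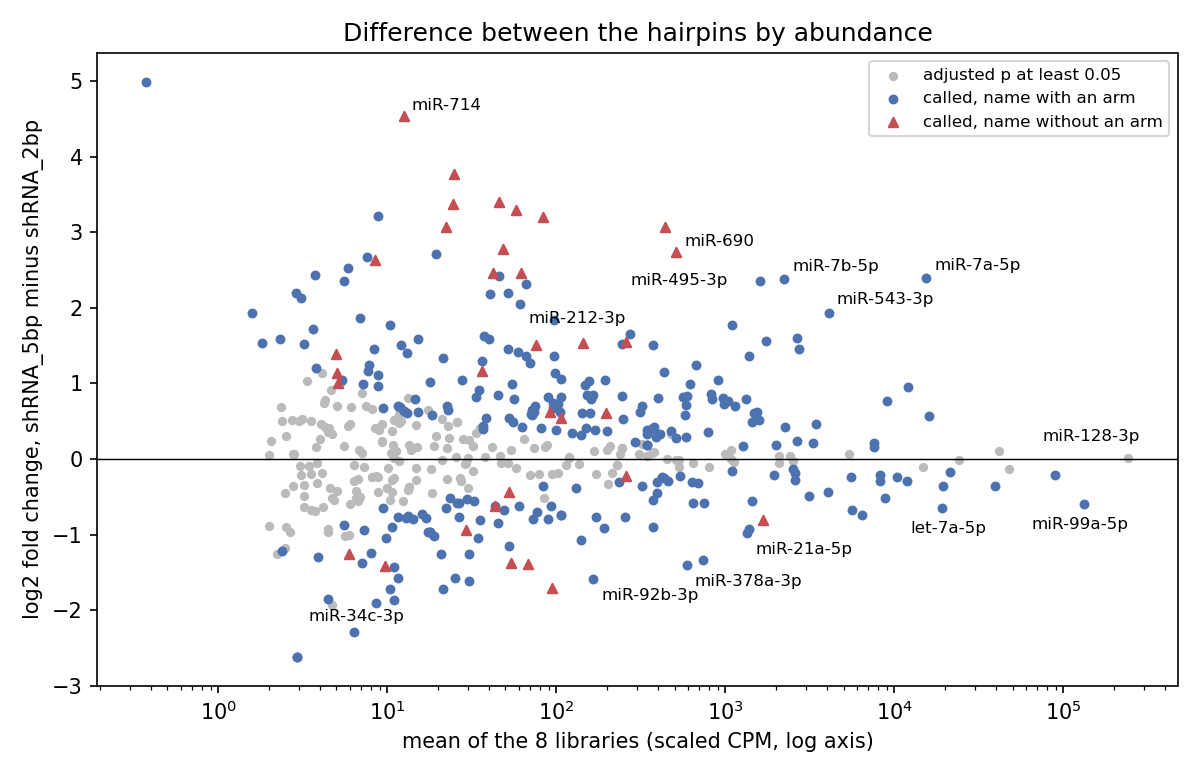
Each point is 1 of the 483 tested miRNAs, with its mean scaled CPM over the 8 libraries (log axis) against its log2 difference between the hairpins; blue circles and red triangles passed the test. MiR-7a-5p stands at 2.39 among the abundant miRNAs, miR-99a-5p at -0.60 and miR-128-3p at 0.02, while many of the rises above 2.5 are names without an arm suffix.

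The clearest difference was in miR-7, a deeply conserved miRNA of neurons and endocrine cells. Both abundant strands, that of miR-7a and that of miR-7b, were over 5-fold higher with the 5-mutation hairpin. MiR-7a-5p, encoded (GRCm38.p6) at chr13:58392779-58392886 in an intron of Hnrnpk and at chr7:78888277-78888373, stood at 5057, 4596, 5096 and 4918 CPM in shRNA_2bp libraries 1 to 4 and at 25708, 26320, 24526 and 26800 CPM in shRNA_5bp libraries 1 to 4. Each group was narrow and no library came near the other group. The difference was 2.39 ± 0.064 (SE, adjusted p = 9.91e-23). MiR-7b-5p, from chr17:56242988-56243098, stood at 730, 703, 792 and 639 CPM against 3736, 3906, 3481 and 3753 CPM. The gap was nearly the same on the log scale (2.38 ± 0.065, adjusted p = 1.11e-22). The genes lie on different chromosomes, but the strands differ by 1 base over their shared length. How reads that fit both were assigned is not given, so they may not be separate measurements. Neurons with the empty vector had 6738 ± 658 CPM of miR-7a-5p and those with the unmutated hairpin 19618 ± 959 CPM (mean ± SD, n = 4). The 2-mutation hairpin thus lay below the empty vector and the 5-mutation hairpin above the unmutated one for miR-7a-5p. For miR-7b-5p the order was different, since the unmutated hairpin was highest at 5602 ± 188 CPM.

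The opposite strands of the miR-7a hairpins did not follow. MiR-7a-1-3p had 29.3, 38.5, 36.9 and 32.7 CPM with shRNA_2bp and 23.4, 32.7, 21.9 and 24.3 CPM with shRNA_5bp, a difference of -0.38 ± 0.202 (adjusted p = 0.107). MiR-7a-2-3p was at 52.7 ± 11.9 and 50.8 ± 5.44 CPM (-0.06, 95% interval -0.36 to 0.24, adjusted p = 0.752). For both of these strands the groups overlapped. In the miR-7 list 1 strand passed as lower with DESeq2 size factors, with the 8 libraries alone and without shRNA_5bp library 2.

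**Figure D2:**
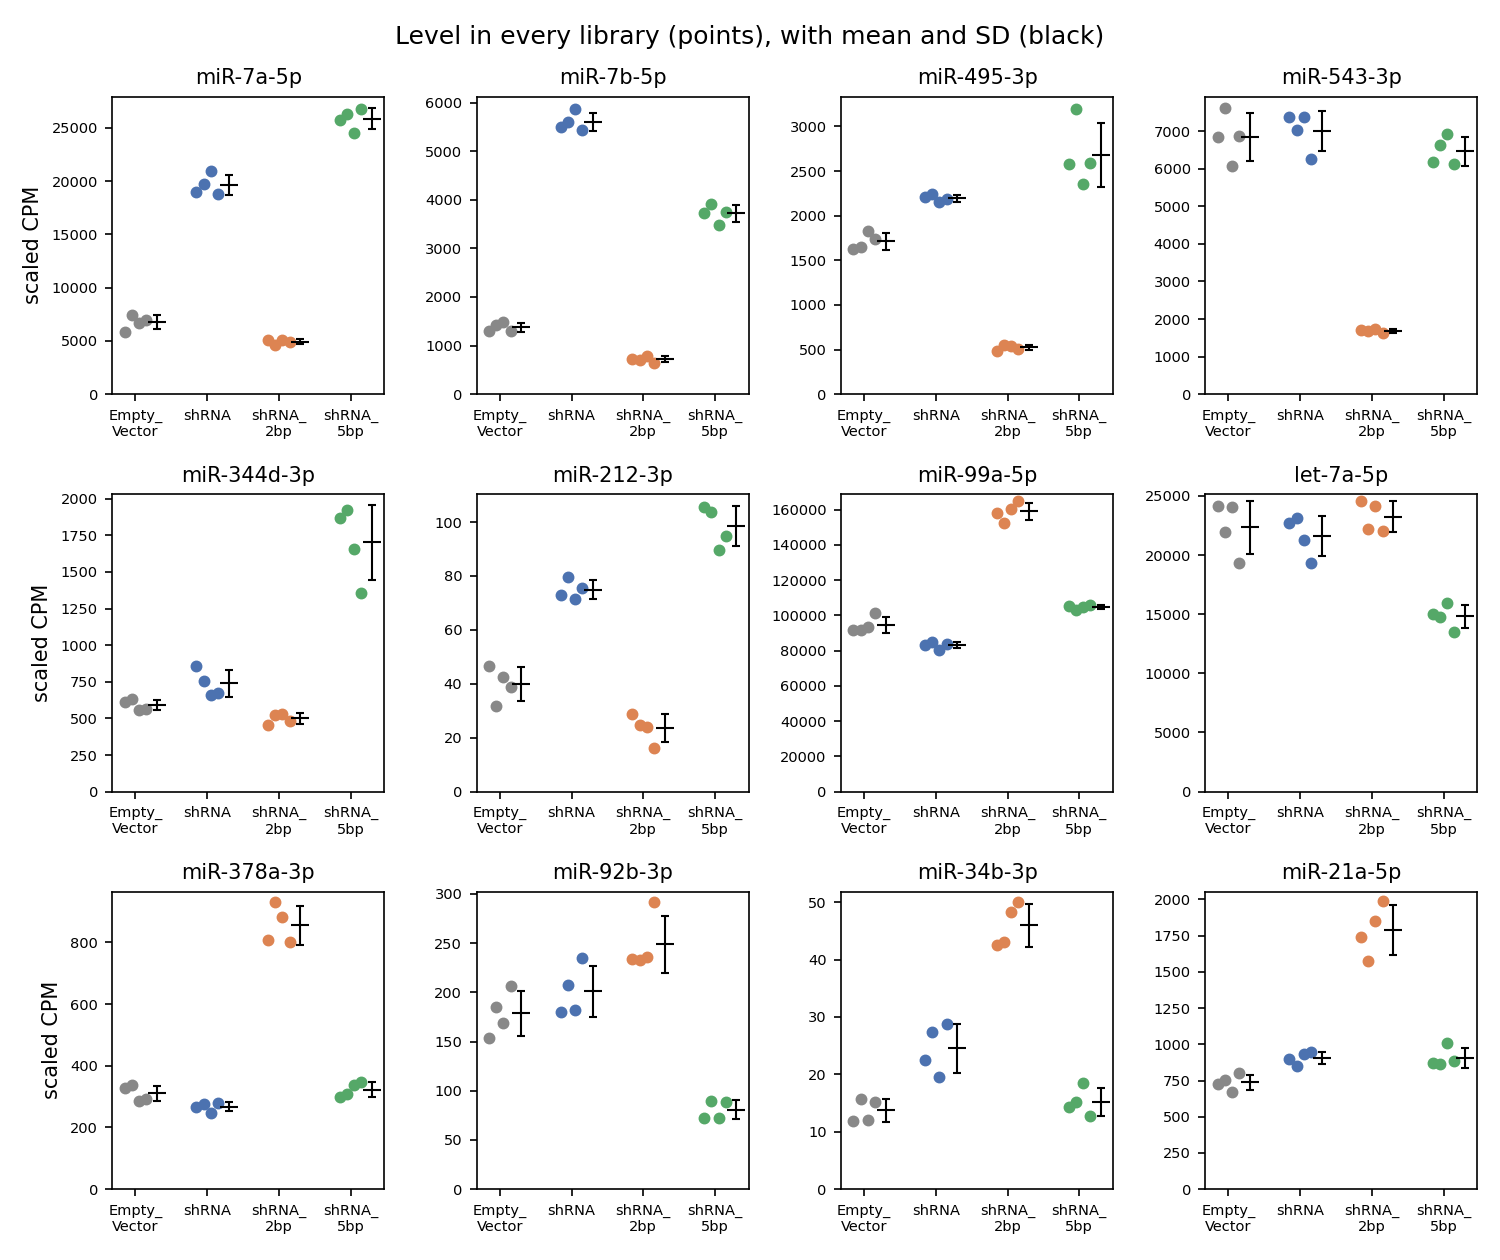
Scaled CPM of 12 miRNAs in every library (points, axes from 0), with the mean and SD of 4 libraries in black, for the 4 groups of the study. The panels from miR-7a-5p to miR-212-3p show miRNAs higher with shRNA_5bp than with shRNA_2bp, such as miR-495-3p at 2681 against 523 CPM, and those from miR-99a-5p on show miRNAs that were lower, such as miR-378a-3p at 323 against 856 CPM.

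MiR-132 and miR-212 come from neighbouring hairpins (chr11:75173388-75173747) whose transcription follows neuronal activity through CREB. All 4 of their strands were higher with the 5-mutation hairpin, against 36.9% of all tested miRNAs, but by different amounts. MiR-212-3p stood at 28.7, 24.9, 24.1 and 16.4 CPM with shRNA_2bp and at 106, 104, 89.8 and 94.9 CPM with shRNA_5bp (2.04 ± 0.155, adjusted p = 2.85e-12). MiR-132-3p, which has the same seed and is far more abundant, went from 1211 ± 87.8 to 1863 ± 144 CPM (0.62 ± 0.068, adjusted p = 6.06e-09). The strands opposite to them, miR-212-5p and miR-132-5p, differed by 1.15 ± 0.081 and 0.73 ± 0.066. In none of the 4 did the groups overlap. The empty vector gave 40.0 ± 6.31 CPM of miR-212-3p and 886 ± 76.8 CPM of miR-132-3p, so the 2-mutation hairpin lay below it for the first and above it for the second.

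MiR-129-5p, a brain-enriched miRNA linked to the scaling of synapses, was at 7768, 8136, 9161 and 7658 CPM with shRNA_2bp and at 15879, 17174, 16258 and 14037 CPM with shRNA_5bp. The groups did not overlap and the difference was 0.95 ± 0.068 (adjusted p = 7.68e-13). Its 2 partner strands were higher as well, miR-129-2-3p by 0.62 ± 0.114 without overlap and miR-129-1-3p by 0.62 ± 0.193 with overlap (adjusted p = 0.00845). MiR-128-3p, the most abundant miRNA of these cultures, stood at 246670, 226700, 252310 and 237520 CPM with shRNA_2bp and at 262500, 229520, 269060 and 213140 CPM with shRNA_5bp. The shRNA_5bp libraries lay on both sides of the others, and the difference of 0.02 had a 95% interval of -0.12 to 0.15 (adjusted p = 0.841). Both groups were below the empty vector, at 427180 ± 14822 CPM. Of the strands opposite to miR-128-3p, the scarce miR-128-1-5p was higher, from 1.19 ± 0.623 to 6.27 ± 1.86 CPM (2.43 ± 0.471, adjusted p = 6.39e-05), which was at or under the detection floor in 3 of the 4 shRNA_2bp libraries.

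Among 12 strands of the neuron-enriched miR-9, miR-124, miR-137, miR-138, miR-153 and miR-218, 5 were higher and 5 lower (median 0.08), beside 36.9% and 22.8% of all tested miRNAs. The share of rises was near that of the whole. MiR-138-5p, a regulator of dendritic spine size, was at 104, 118, 94.4 and 113 CPM against 193, 189, 204 and 192 CPM with the 5-mutation hairpin (0.85 ± 0.103, adjusted p = 3.26e-08). The strand miR-138-2-3p also rose (1.34 ± 0.214). MiR-9 moved the other way. MiR-9-3p was at 7993, 7686, 8085 and 8378 CPM with shRNA_2bp and 5112, 4879, 4547 and 4621 CPM with shRNA_5bp (-0.75 ± 0.056, adjusted p = 1.98e-12). MiR-9-5p, the strand that marks neural progenitors and young neurons, went from 95347 ± 1437 to 81991 ± 1542 CPM (-0.22 ± 0.047, adjusted p = 0.000227). In this list the count of rises fell to 2 or 3 with DESeq2, with its size factors, with low counts kept in, with the 8 libraries alone, and without shRNA_2bp library 2 or 3 or shRNA_5bp library 1 or 4. The count of falls was 3 with library totals alone.

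The imprinted Dlk1-Dio3 region of chromosome 12 codes for a large group of brain miRNAs, transcribed from the maternal copy along the non-coding RNAs Meg3, anti-Rtl1, Rian and Mirg. Of its 82 tested strands 44 were higher and 10 lower with the 5-mutation hairpin, beside 36.9% higher and 22.8% lower over all tested miRNAs, and the median was 0.45 against 0.16. Unscaled CPM were also summed over all 110 names of the region, tested or not. That sum was 66524 to 73027 CPM in the shRNA_2bp libraries and 93528 to 101880 CPM in the shRNA_5bp libraries. The empty vector had 103890 to 107340 CPM by the same unscaled sum. Such sums are shares of each library and cannot be set beside the scaled levels given elsewhere.

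On the Meg3 side 7 of 10 strands were higher and 0 lower (median 1.10), to be read, like the counts of the other 3 parts, against the same 36.9% and 22.8%. MiR-770-3p, whose hairpin overlaps an exon of Meg3 (chr12:109563692-109563785), was at 1453, 1508, 1550 and 1326 CPM with shRNA_2bp and at 4014, 4240, 4135 and 3560 CPM with shRNA_5bp. The groups lay far apart (1.45 ± 0.07, adjusted p = 1.56e-16), and both were below the 6484 ± 496 CPM of the empty vector. Its partner miR-770-5p differed by 1.84 ± 0.118, miR-673-5p by 1.13 ± 0.117 and miR-540-3p by 1.06 ± 0.111.

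Within anti-Rtl1, the transcript opposite to the retrotransposon-derived gene Rtl1, 6 of 10 strands were higher and 2 lower (median 0.40). MiR-127-3p, the most abundant of those named here, was at 12157, 13731, 13557 and 11950 CPM against 17986, 19934, 19024 and 19262 CPM with the 5-mutation hairpin (0.57 ± 0.062, adjusted p = 5.53e-09). MiR-433-3p rose from 770 ± 37.3 to 1309 ± 100.3 CPM (0.77 ± 0.063), still below the 3679 ± 248 CPM of the empty vector. MiR-431-3p rose by 1.30 ± 0.17. MiR-434 went against its neighbours, with miR-434-3p at 3534, 3703, 3686 and 3729 CPM against 2559, 2666, 2443 and 2739 CPM (-0.49 ± 0.057, adjusted p = 1.58e-08). Its other strand, miR-434-5p, which was not among the miRNAs named by rule and was added after its value was seen, was lower by less (-0.21 ± 0.055).

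From Rian 4 of 5 strands were higher and 0 lower (median 0.83). MiR-370-3p was at 6536, 6811, 7243 and 6333 CPM with shRNA_2bp and at 11525, 11347, 11590 and 11351 CPM with shRNA_5bp (0.77 ± 0.053, adjusted p = 3.66e-13). The groups were distinct and both lay below the empty vector, at 18765 ± 1036 CPM. MiR-341-3p (0.83 ± 0.084), miR-370-5p (1.04 ± 0.185) and the scarce miR-1188-5p (2.14 ± 0.504) rose too.

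The Mirg part, which runs from miR-379 to miR-410, had 57 tested strands, of which 27 were higher and 8 lower (median 0.41), beside 36.9% and 22.8% of all tested miRNAs. Neighbouring hairpins could move in opposite directions, as miR-300-3p (1.36) and miR-381-3p (-0.52, given below) did, or alike, as the next 2 did. MiR-495-3p (chr12:109718754-109718816) stood at 484, 554, 545 and 511 CPM with shRNA_2bp and 2579, 3200, 2354 and 2592 CPM with shRNA_5bp, a difference of 2.36 ± 0.075 (adjusted p = 4.77e-21). MiR-543-3p, from the hairpin before it (chr12:109717258-109717333), stood at 1712, 1674, 1739 and 1621 CPM against 6178, 6629, 6927 and 6116 CPM (1.94 ± 0.067, adjusted p = 3.12e-20). In both, every shRNA_5bp library was more than 3 times any shRNA_2bp library. The empty vector had 1714 ± 94.2 CPM of miR-495-3p and 6858 ± 638 CPM of miR-543-3p. For miR-495-3p the 5-mutation hairpin was therefore above the empty vector, and for miR-543-3p it was near it. MiR-666-5p (1.66 ± 0.081), miR-410-3p (1.53 ± 0.087) and miR-300-3p (1.36 ± 0.063) rose as well.

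The strands of this part that fell, none of them among those named by rule, were looked up after their values were seen. MiR-381-3p was at 10310, 10807, 10166 and 10288 CPM against 7185, 7122, 6985 and 7640 CPM with the 5-mutation hairpin (-0.52 ± 0.053, adjusted p = 1.13e-09). MiR-376b-3p went from 487 ± 35.6 to 261 ± 9.19 CPM (-0.90 ± 0.085). Both remained above the empty vector, at 5366 ± 257 and 104 ± 6.44 CPM. The others were miR-485-3p (-0.25 ± 0.1), miR-376c-5p (-1.30 ± 0.567) and both strands of miR-299a and miR-299b, whose counts were identical by strand so that they are 2 measurements and not 4. The count of falls in this part was 4 with a minimum of 10 CPM, and 5 with the 8 libraries alone or with identical names merged.

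**Figure D3:**
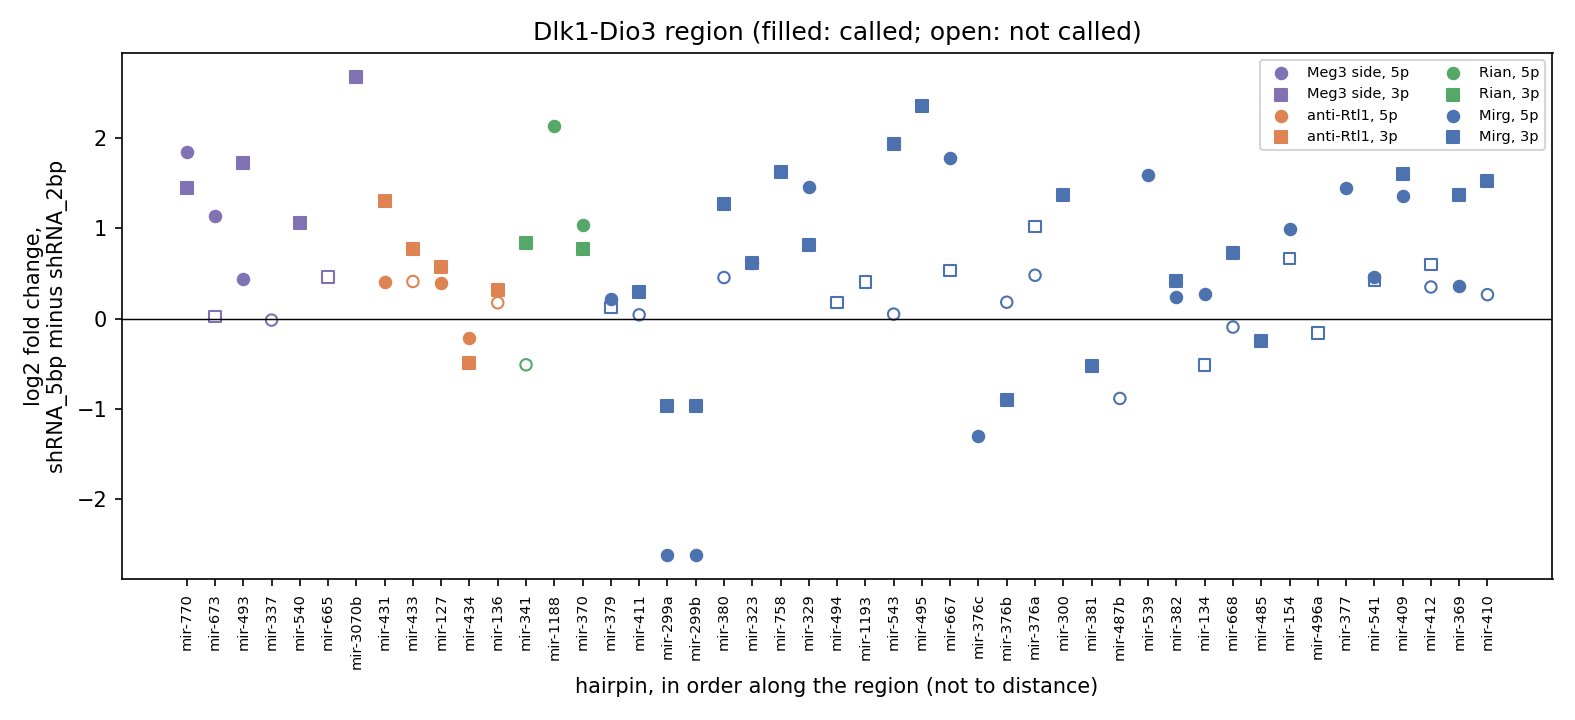
Log2 difference between the hairpins for the tested strands of the Dlk1-Dio3 region whose hairpin was found in the annotation, in genomic order from left to right (circles 5p, squares 3p; filled symbols passed the test; distances are not to scale). Most filled symbols lie above 0 in all 4 parts, with miR-495-3p at 2.36, while miR-434-3p at -0.49 and miR-376b-3p at -0.90 lie below.

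The miR-344 family comes from hairpins on chromosome 7 and is expressed mainly in brain. Of 8 tested strands 6 were higher and 0 lower (median 1.68), and the counts of this and the following lists stand beside 36.9% higher and 22.8% lower among all tested miRNAs. MiR-344d-3p was at 457, 527, 530 and 485 CPM with shRNA_2bp and at 1865, 1925, 1656 and 1359 CPM with shRNA_5bp (1.77 ± 0.101, adjusted p = 2.01e-12). Its groups did not overlap, and the empty vector had 592 ± 37.3 CPM. MiR-344e-3p (chr7:61735537-61735602) rose from 18.7 ± 3.05 to 85.1 ± 14.5 CPM (2.19 ± 0.162) and miR-344f-3p from 14.5 ± 1.16 to 76.9 ± 12.4 CPM (2.42 ± 0.161). MiR-344f-3p has a different seed from the other 2. The seed AUAUAAC of miR-344d-3p and miR-344e-3p is also that of miR-410-3p from chromosome 12, and all 3 were higher. Together these 3 held 600 to 688 CPM with shRNA_2bp and 1794 to 2410 CPM with shRNA_5bp.

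Some miRNAs skip the Microprocessor. Mirtrons are spliced out as short introns, and miR-320 is cut by Dicer from a short capped transcript. Of 10 tested strands listed as made in such ways 7 were higher and 0 lower (median 0.70). MiR-1224-5p was at 11.4, 19.0, 7.81 and 19.6 CPM with shRNA_2bp and at 68.1, 69.5, 70.2 and 59.0 CPM with shRNA_5bp (2.18 ± 0.188, adjusted p = 4.94e-11). Its hairpin (chr16:20604452-20604536) spans an intron of Vwa5b2 from end to end. MiR-1981-5p, whose hairpin (chr1:184822407-184822488) likewise fills an intron of Marc2, rose from 245 ± 6.39 to 398 ± 35.4 CPM (0.70 ± 0.069). MiR-877-5p, from a hairpin that fills an intron of Abcf1 (chr17:35960730-35960814), rose by 1.50 ± 0.249, and miR-320-3p by 0.36 ± 0.09. These last 2 were outside the naming rule and were added because their origin is well defined. For the 3 miRNAs that fill an intron the empty vector gave more than either mutated hairpin, at 94.1 ± 13.5, 687 ± 21.0 and 32.6 ± 4.32 CPM in the order given. MiR-3085-3p rose from 1.67 ± 0.882 to 10.1 ± 1.83 CPM (2.53 ± 0.38), but no host intron was found for it on its strand. MiR-1839-5p rose by 0.81 ± 0.072, and its sequence lies within an annotated small Cajal body RNA.

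Falls were smaller in most cases and included some of the most abundant miRNAs. The let-7 family, which accumulates as neurons mature and restrains growth genes, had 13 lower and 0 higher of 19 tested strands, miR-98 included (median -0.28; 22.8% of all tested miRNAs were lower). Of the 13, let-7a-1-3p and let-7c-2-3p have identical counts and are 1 measurement. Let-7a-5p was at 24566, 22233, 24172 and 22041 CPM with shRNA_2bp and at 14992, 14799, 15919 and 13536 CPM with shRNA_5bp (-0.65 ± 0.069, adjusted p = 3.88e-09). Let-7f-5p, 1 base apart (G12A, counted from the 5′ end of let-7a-5p), went from 44330 ± 2318 to 34627 ± 1414 CPM (-0.36 ± 0.057). Let-7c-5p was at 49699 ± 3511 and 45142 ± 2373 CPM (-0.14, 95% interval -0.28 to 0.00, adjusted p = 0.0889), and it passed as lower with DESeq2, with its size factors, with low counts kept in, with the 8 libraries alone, with the replicate block and without shRNA_5bp library 4. Let-7i-5p was at 40037 ± 1900 and 43256 ± 2534 CPM (0.11, 95% interval -0.01 to 0.23, adjusted p = 0.0992), and it passed as higher with library totals alone, with a minimum of 10 CPM and with the replicate block. Of the 10 tested members with the seed GAGGUAG 8 were lower, and their sum was 194600 to 211940 CPM with shRNA_2bp and 166550 to 182960 CPM with shRNA_5bp. Of the 4 let-7 hairpins with both strands in the ratio test, the opposite strands let-7b-3p (-1.04 ± 0.169) and let-7d-3p (-0.59 ± 0.06) had larger falls than their partners, whereas let-7e-3p (-0.03) and let-7i-3p (0.08) did not pass. With library totals alone or a minimum of 10 CPM 2 members of the list were higher, and with the replicate block or without shRNA_2bp library 3 it was 1.

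MiR-99a-5p, from chr16:77598936-77599000 beside a let-7c hairpin, had the largest loss in CPM. It was at 158100, 152490, 160400 and 164620 CPM with shRNA_2bp and at 105490, 102930, 104740 and 105840 CPM with shRNA_5bp, without overlap (-0.60 ± 0.048, adjusted p = 1.09e-11). The empty vector, at 94430 ± 4482 CPM, was closer to the 5-mutation hairpin. MiR-100-5p, a single base apart, was at 5274 ± 267 and 5504 ± 154 CPM (0.06, 95% interval -0.05 to 0.18, adjusted p = 0.349), and its groups overlapped. MiR-99b-5p fell by 0.44 on the log2 scale (SE 0.055). The miR-125 family, kept in the same list, has another seed, CCCUGAG, which it shares with miR-351-5p. The 3 tested members with that seed fell. MiR-125a-5p went from 6878 ± 514 to 4285 ± 291 CPM (-0.68 ± 0.063), miR-125b-5p from 21712 ± 1956 to 16958 ± 1170 CPM (-0.36 ± 0.066) and miR-351-5p by -0.91 ± 0.267. In all, 5 of 9 strands of the miR-99, miR-100 and miR-125 list were lower. The 2 that were higher, miR-125b-2-3p (0.61 ± 0.1) and miR-99b-3p (0.38 ± 0.098), are strands opposite to an abundant one, and miR-99b-3p did not pass when low counts were kept in or with the 8 libraries alone.

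The 5 tested strands of miR-34, a family that p53 switches on, were all lower (median -1.58). MiR-34b-3p was at 42.5, 43.0, 48.3 and 49.9 CPM with shRNA_2bp and at 14.2, 15.2, 18.4 and 12.8 CPM with shRNA_5bp (-1.61 ± 0.194, adjusted p = 3.22e-08). The difference was -1.87 ± 0.344 for miR-34c-3p, -1.58 ± 0.267 for miR-34a-5p and -0.84 ± 0.206 for miR-34c-5p, which alone of these overlapped between the groups. The empty vector had 13.7 ± 2.02 CPM of miR-34b-3p, near the level of the 5-mutation hairpin. MiR-34a-5p is encoded on chromosome 4, apart from the miR-34b and miR-34c pair on chromosome 9.

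MiR-378a-3p, processed from an intron of the metabolic co-activator gene Ppargc1b, was at 807, 931, 884 and 801 CPM with shRNA_2bp and at 299, 307, 338 and 347 CPM with shRNA_5bp (-1.41 ± 0.077, adjusted p = 2.47e-15). The empty vector, at 311 ± 25.1 CPM, was within the range of the 5-mutation hairpin. MiR-378c fell by 1.71 on the log2 scale (SE 0.126). MiR-378d (-1.39 ± 0.151) and miR-378b (-1.42 ± 0.316), looked up after the values of the others, were lower as well. Reads of these near-identical sequences may have been split between names or counted under more than 1 name.

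MiR-92b-3p, a miRNA of neural progenitors, stood at 234, 233, 236 and 291 CPM with shRNA_2bp and at 72.1, 89.9, 72.5 and 88.8 CPM with shRNA_5bp (-1.59 ± 0.121, adjusted p = 3.14e-12). Here the 5-mutation hairpin lay below the empty vector (179 ± 22.6 CPM) and the 2-mutation hairpin above it. Of the 5 tested miRNAs with its seed AUUGCAC 4 were lower, including miR-25-3p (-0.58 ± 0.081) and miR-92a-3p (-0.36 ± 0.079). In the wider list of the miR-17-92 cluster and its paralogs, which drive cell growth, 5 of 13 strands were lower and 1 higher, miR-17-5p by 0.92 ± 0.188. That count of rises was 2 with library totals alone, a minimum of 10 CPM, the replicate block, identical names merged or without shRNA_2bp library 1. The 5 lower strands include both strands of miR-92b, whose hairpin was not grouped by position with those clusters.

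Of 11 strands of the widely expressed miR-30 family 8 were lower and 0 higher (median -0.30). MiR-30e-3p was at 1812, 1785, 1865 and 1765 CPM with shRNA_2bp and at 989, 885, 1018 and 915 CPM with shRNA_5bp (-0.93 ± 0.059, adjusted p = 7.42e-14). MiR-30d-5p fell by less (-0.24 ± 0.051) and miR-30c-5p was at the threshold (-0.14 ± 0.059, adjusted p = 0.0498). Without shRNA_2bp library 2 or 3 the count of falls was 5. Other strands that fell most among miRNAs above 10 CPM were miR-615-3p (-1.73 ± 0.319), miR-455-3p (-1.72 ± 0.31), miR-10a-5p (-1.58 ± 0.21) and miR-184-3p (-1.43 ± 0.297).

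The miR-181 family split by strand. MiR-181d-5p was higher (0.43 ± 0.056) and miR-181b-5p slightly so (0.16, not called with DESeq2 or with 8 of the other alternatives), while miR-181a-1-3p (-1.07 ± 0.119) and miR-181a-2-3p (-0.81 ± 0.181) were lower. The most abundant member, miR-181a-5p, was at 15385 ± 1187 and 14297 ± 406 CPM (-0.11, 95% interval -0.24 to 0.03, adjusted p = 0.167). Of 9 strands of the miR-23, miR-27 and miR-24 clusters 5 were higher and 0 lower. Among them miR-24-3p was at 955, 966, 955 and 979 CPM against 1739, 1590, 1701 and 1659 CPM (0.79 ± 0.056, adjusted p = 7.35e-13), and miR-23a-3p differed by 0.82 ± 0.149. That count was 3 when low counts were kept in or with the 8 libraries alone. In the miR-29 family, which rises as neurons mature, 3 of 4 were higher, including miR-29a-3p (0.43 ± 0.094), but only 1 with low counts kept in. None of 3 miR-26 strands passed in the first fit, with miR-26a-5p at 24044 ± 564 and 23838 ± 347 CPM (-0.01, 95% interval -0.11 to 0.09). However, 1 or 2 of these strands were lower with DESeq2, with its size factors, with low counts kept in, with the 8 libraries alone or without shRNA_5bp library 4. None of 5 strands of the Sfmbt2 cluster passed (medians -0.34 here and -0.46 to -0.13 over the alternatives).

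**Figure D4:**
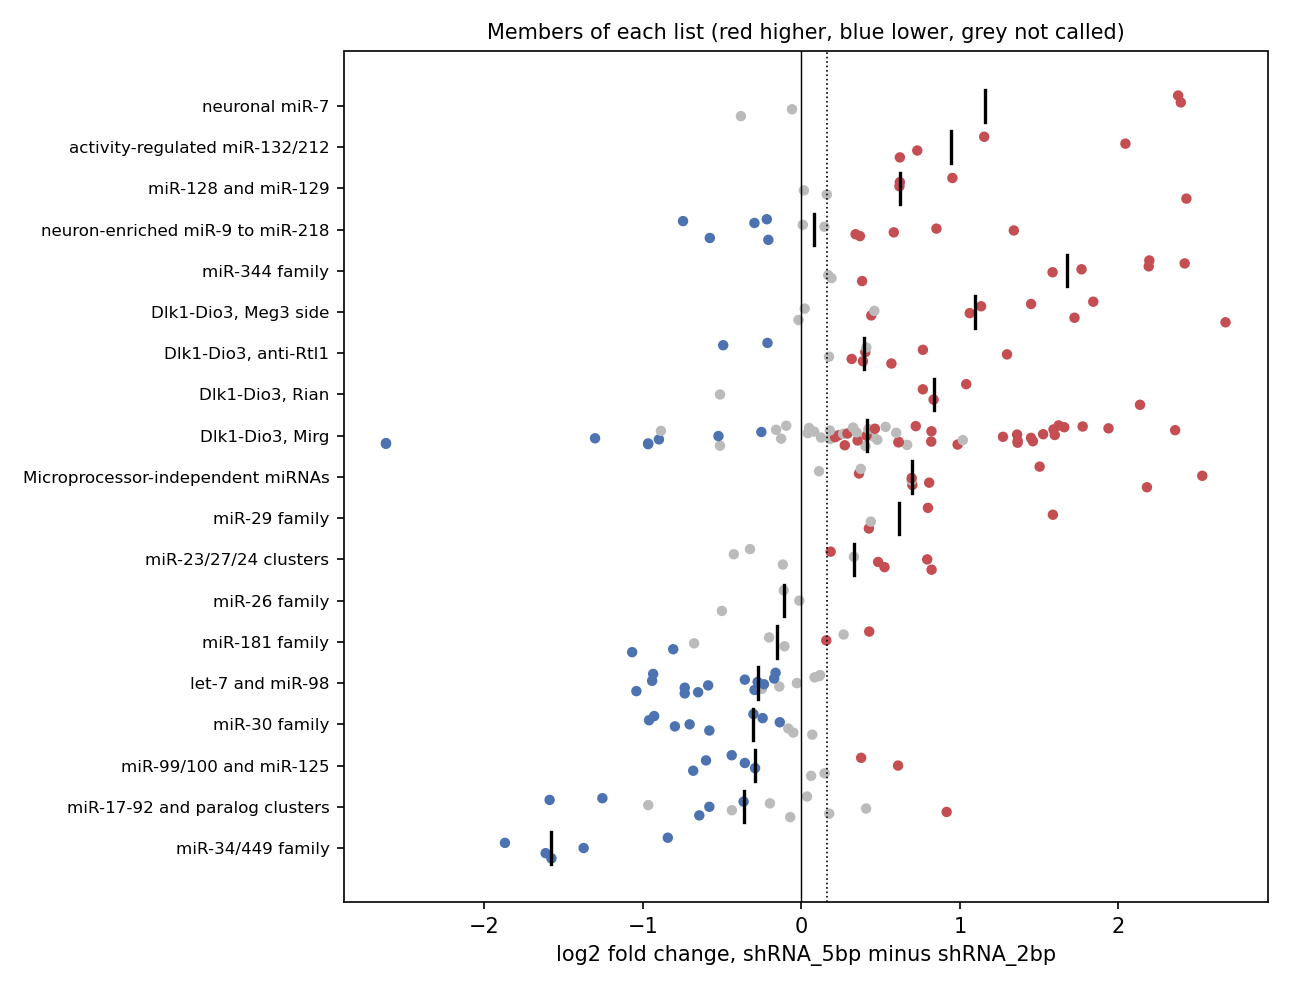
Each point is the log2 difference of 1 tested strand, in rows by list; red points were higher and blue points lower with shRNA_5bp at an adjusted p below 0.05, and grey points did not pass. Black bars are list medians, from -1.58 for miR-34 to 1.68 for miR-344, and the dotted line is the median of all tested miRNAs at 0.16.

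With both strands of a hairpin tested, the ratio of the strands does not depend on the scaling of the library. Of 117 such hairpins the ratio did not overlap between the groups in 35 (29.9%). None reached an adjusted p below 0.05 in the exact permutation test (smallest adjusted p = 0.0955), since 4 libraries against 4 cannot go below p = 0.0286 before adjustment, and all 35 stand at that limit. The strand that was more abundant over both groups gained in 19 of the 35 and lost in 16. The mean log2 ratio of 5p to 3p changed sign in 4 of the 117 hairpins, miR-340, miR-490, miR-664 and miR-877, which were looked up after their values were seen. Their strands are near balance, and only for miR-664 (0.24 ± 0.370 with shRNA_2bp and -0.66 ± 0.503 with shRNA_5bp, SD, n = 4) did the groups not overlap. In 5 hairpins (4.27%) the strands passed the test in opposite directions. MiR-335 was the widest of these. Its major strand miR-335-3p was at 568, 557, 615 and 613 CPM against 1076, 1083, 1042 and 1058 CPM with the 5-mutation hairpin (0.86 ± 0.057), whereas miR-335-5p was at 105, 111, 110 and 128 CPM against 53.8, 81.3, 73.7 and 80.9 CPM (-0.62 ± 0.144). MiR-708 showed a minor strand that was higher (miR-708-5p 1.04 ± 0.111) beside a major strand that was lower (miR-708-3p -0.18 ± 0.053). The remaining 3 were miR-296, miR-1843b and miR-99b. Of the 5, only miR-335 kept both calls under every alternative. Among other cases, miR-708-3p and miR-296-3p did not pass with library totals alone. MiR-1843b-5p did not pass with DESeq2, nor miR-99b-3p with low counts kept in. Both strands passed in the same direction in 40 hairpins.

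A separate group of rises came from names without an arm suffix, which are mostly late entries of the catalogue for which a hairpin origin is less well established. Of 47 such names among the 483 tested, 23 were higher and 10 lower (median 0.38), beside 36.9% higher and 22.8% lower among all tested miRNAs, so that the share of falls was near that of the whole. Among the 30 miRNAs that were over 4-fold higher 13 lacked a suffix. MiR-690 (chr16:28599935-28600043, an intron of Fgf12) was at 116, 151, 124 and 136 CPM with shRNA_2bp and at 1128, 546, 1164 and 711 CPM with shRNA_5bp (2.73 ± 0.251, adjusted p = 4.43e-07). MiR-6538 was at 89.2, 81.5, 111 and 91.7 CPM against 995, 466, 1007 and 690 CPM (3.07 ± 0.29). In both, the groups were far apart, yet the shRNA_5bp libraries also differed from each other, with library 2 lowest. The sequences of miR-690 and of a pair that matches other RNAs are given as examples, again with bases 2 to 8 in capitals.
miR-690: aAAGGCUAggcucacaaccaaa
miR-5121: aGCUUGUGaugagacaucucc
miR-6481: cACUGAAAaugcuuagaug

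MiR-5121 (2.78 ± 0.249) lies within an annotated small nucleolar RNA, and its locus overlaps an exon of the ribosomal protein gene Rpl13a (chr7:45126918-45126991). MiR-6481 (3.07 ± 0.387) is found within a mitochondrial tRNA. In all, 15 of the 427 tested mature sequences at hand lie within an annotated small nucleolar, small Cajal body, transfer or other structured RNA. Of these 9 were higher and 2 lower, beside 36.9% higher and 22.8% lower among all tested miRNAs. The 15 include both strands of miR-1843a, miR-1843b, miR-3068 and miR-664. Of the 13 names without a suffix that were over 4-fold higher, 9 had a sequence to search. Among these only miR-5121, miR-6481 and miR-3470b had a match. For the others, such as miR-714, miR-709 and miR-696, no sequence was at hand and no search was made. MiR-714, miR-709, miR-6238, miR-6239, miR-696 and miR-1195 showed log2 differences of 4.54, 3.78, 3.40, 3.38, 3.29 and 3.21. MiR-714 was within the detection floor in 3 of the 4 shRNA_2bp libraries (0, 0.45, 0.71 and 3.27 CPM against 30.5, 13.7, 32.2 and 18.9 CPM), so the size of its rise is poorly fixed.

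The 13 names together made up 0.0286, 0.0333, 0.0355 and 0.0336% of counts in shRNA_2bp libraries 1 to 4 and 0.336, 0.158, 0.315 and 0.232% in shRNA_5bp libraries 1 to 4. The shares do not overlap (exact permutation p = 0.0286), but the 13 were picked for their rise, so this is a description. Within the shRNA_5bp group the share was highest in the 2 libraries with the fewest counts (946285 and 831859) and lowest in the one with the most (2496036). The part of depth in the result was not tested. Between libraries of like depth, shRNA_2bp library 3 with 1407083 counts had 0.0355% and shRNA_5bp library 4 with 1462353 had 0.232%. The libraries of the other 2 groups held 0.00802 to 0.0149%.

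**Figure D5:**
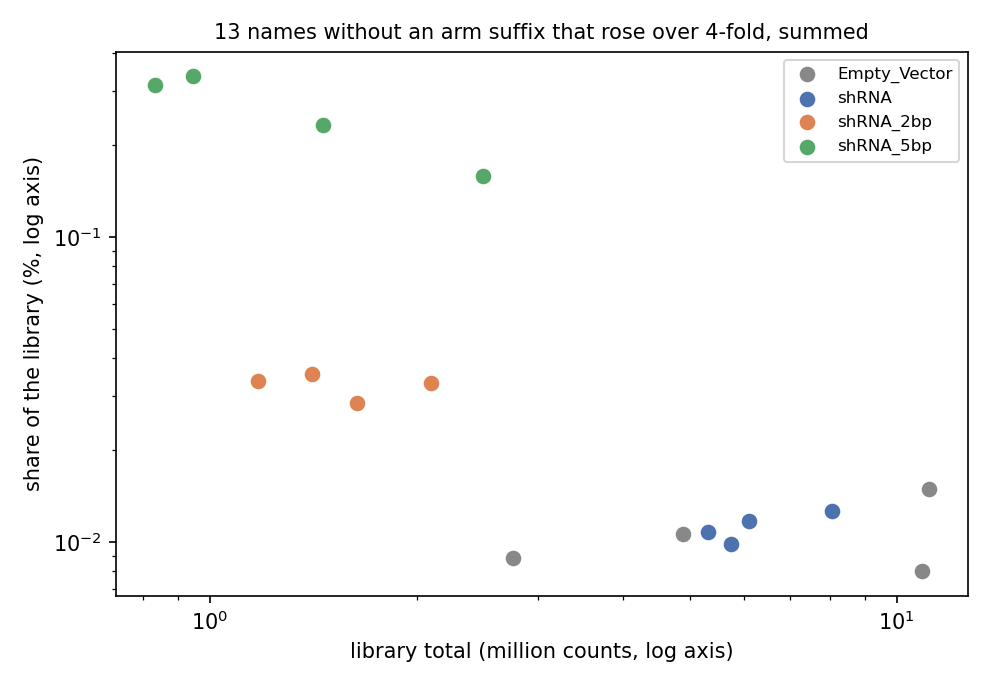
Share of each library taken by the 13 names without an arm suffix that were over 4-fold higher, against the total of miRNA counts (both axes log), for the 16 libraries. The 4 shRNA_5bp libraries lie at 0.158 to 0.336%, above the shRNA_2bp libraries of similar depth at 0.0286 to 0.0355%.

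Mature sequences were at hand for 427 of the tested miRNAs. The median GC content was 52.4% among the 159 higher ones, 47.6% among the 97 lower ones and 47.8% among the 171 not called. The first base was U in 36.5%, 47.4% and 45.0% of them. These are descriptions, and related sequences are not independent.

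Most listed markers of other cells were low or moved little. The exceptions with high counts were 3 strands that lean to astroglia, and the astroglia list holds only strands of miR-21a and miR-22. Some scarcer markers of other cells fell too, among them miR-10a-5p (-1.58 ± 0.21) and the muscle miRNAs given below. MiR-21a-5p, also induced by stress in many cell types, was at 1742, 1577, 1850 and 1989 CPM with shRNA_2bp and at 870, 862, 1006 and 886 CPM with shRNA_5bp (-0.98 ± 0.071, adjusted p = 1.08e-12). MiR-22-5p (-0.77 ± 0.090) and miR-22-3p (-0.56 ± 0.06) were lower as well. In unscaled CPM, the 4 names of that list summed to 3672 to 3968 in the shRNA_2bp libraries and 2239 to 2494 in the shRNA_5bp libraries. The same unscaled sum was 1669 to 1854 CPM with the empty vector. Whether the cultures differed in their share of other cells was not tested, and fewer cells of a type cannot be told apart from less RNA per cell.

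Of 2 tested oligodendrocyte miRNAs 1 was lower (miR-338-5p -0.38 ± 0.121, not without shRNA_5bp library 2), and the defining miR-219a-5p had at most 1 count in any of the 8 libraries. Of 2 tested microglia and leukocyte miRNAs 1 was lower (miR-146a-5p -0.36 ± 0.14), and miR-142a-3p and miR-223-3p, which define these cells, were at 0. That call was lost with library totals alone, a minimum of 10 CPM and without shRNA_2bp library 2 or shRNA_5bp library 1 or 2. Of 7 vessel and fibroblast miRNAs 1 was lower, miR-10a-5p, while the endothelial miR-126a-3p was at 1135 ± 62.0 and 1099 ± 49.0 CPM (-0.05, adjusted p = 0.546). The unscaled sum over all 9 names of that list was 1231 to 1461 CPM with shRNA_2bp and 1282 to 1432 CPM with shRNA_5bp. The 2 tested erythroid names, miR-486a-5p and miR-486b-5p, have identical counts and did not pass, and miR-144-3p was at 0. Of the muscle miRNAs miR-1a-3p (-0.77 ± 0.199) and miR-206-3p (-1.85 ± 0.518) were lower, at 33.2 ± 5.10 and 7.04 ± 1.12 CPM with shRNA_2bp.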

How the data were processed

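Small RNA libraries were made from 100 ng of total RNA with 15 cycles of PCR, per the labels' protocols. The deposited table holds raw read counts per mature miRNA, made by the authors. Trim Galore, cutadapt 1.15, Bowtie 1.1.1, edgeR and the build GRCm38.p6 are named in the submitters' processing notes, and which step each served is not given in the sources used here. The labels name no molecular identifiers, so the floor of 3 counts covers counting error only.

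All 16 libraries were fitted in 1 model with 12 residual degrees of freedom (edgeR 4.0.16, limma 3.58.1, R 4.3.3), with TMM scaling, edgeR's filter on low counts and the robust quasi-likelihood F test. The Benjamini-Hochberg adjustment covered all 483 tested miRNAs, with a threshold of 0.05. The filter left out 1495 names, 611 of them without a count in any library, and the tested ones held at least 99.941% of the counts of each library. Each standard error is the log2 difference divided by the square root of F. Scripts were tested on simulated data. Strand ratios used counts plus 0.5, and exact permutation tests over the 70 splits of 4 and 4 libraries were two-sided, adjusted over the 117 ratios or over the totals and shares.

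The naming rule took the 10 largest rises and 10 largest falls that passed, averaged at least 10 CPM and did not overlap between the groups. It added the 10 most abundant miRNAs, the 5 largest gains and losses in CPM, up to 4 members of each list by adjusted p, hairpins with strands called in opposite directions, and groups of at least 3 with a shared seed. MiR-7a-1-3p, miR-7a-2-3p, miR-100-5p, miR-181a-5p, miR-34b-5p and those marked in the text stand outside the rule and were added after their values were seen. The members and lists were chosen with earlier results of these data known. Alternatives were DESeq2 1.42.0 and its size factors, library totals alone, no filter, a minimum mean of 10 CPM, the 8 libraries alone, the replicate number as a block, identical names merged, and each of the 8 libraries left out. Mature sequences and hairpin positions came from RefSeq (GRCm38.p6), matched by name for 427 and 395 tested miRNAs, and hosts and other RNA classes from GENCODE M21.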

Additional observations from a re-analysis of the deposited data

Results flagged for a closer look

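Among the miRNAs named by rule, each group of 4 libraries was searched for a library far from the other 3 relative to the range of the group. Of 272 such groups 16 had one, and chance alone gives about 1 in 20. Within shRNA_2bp the library apart was library 1 for let-7d-5p (6411 CPM) and miR-155-5p (5.99 CPM), library 2 for miR-338-5p (165 CPM) and miR-466i-5p (68.8 CPM), library 3 for miR-29c-5p (17.0 CPM), miR-5121 (14.9 CPM) and miR-6481 (9.94 CPM), and library 4 for miR-1188-5p (2.46 CPM) and miR-92b-3p (291 CPM), each above the other 3. Within shRNA_5bp it was library 1 for miR-27b-3p (2224 CPM), library 2 for miR-30d-5p (10120 CPM) and miR-34a-5p (7.43 CPM), library 3 for let-7k (34.5 CPM) and miR-21a-5p (1006 CPM), and library 4 for miR-497a-5p (9.73 CPM), each above the others, and library 4 for let-7e-5p (2120 CPM), below them. MiR-92b-3p, miR-34a-5p, miR-5121 and miR-6481 were among the largest rises and falls, which were named only if the groups did not overlap. The groups also did not overlap for miR-21a-5p, let-7d-5p, let-7e-5p, miR-1188-5p, miR-27b-3p, miR-29c-5p, miR-30d-5p and miR-497a-5p. They overlapped for miR-155-5p, miR-338-5p, miR-466i-5p and let-7k.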

How the results depend on the processing

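Over the alternatives the calls numbered 249 to 298, with 124 to 189 higher and 90 to 126 lower, and none of the 288 calls passed in the opposite direction under any of them. More than 2-fold falls were 18 with a minimum of 10 CPM against 31, and the other 4 of these counts stayed within 1.5 times. Without each library in turn the calls were 262 to 285, 140 to 178 of them higher and 96 to 122 lower, with 70 to 84 rises and 30 to 40 falls above 2-fold, and 37 to 46 strand ratios did not overlap. The replicate numbers were not taken as pairs because the labels state no pairing. Libraries of the same number correlated at 0.12, 0.26, 0.18 and 0.00 over 359 miRNAs, and 5 of 8 correlated best with their own number. Whether the numbers mark a shared preparation was not tested. A fit with the replicate number as a block gave 298 calls, 187 higher and 111 lower, and changed 3 calls of the named miRNAs (let-7c-5p, let-7i-5p and miR-106b-5p).

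Changes of sign concerned miRNAs that did not pass in the first fit, and their cause was not tested. MiR-128-3p was at -0.0531 with DESeq2, -0.0531 with its size factors, -0.113 without the filter, -0.138 with the 8 libraries alone and -0.0607 to 0.0643 leaving out a library. Let-7i-5p was at -0.0174 without the filter and -0.0437 with the 8 libraries alone. With library totals alone miR-126a-3p was at 0.0139, miR-26a-5p at 0.0482 and miR-466i-5p at 0.00341. With a minimum of 10 CPM miR-126a-3p was at 0.00561 and miR-26a-5p at 0.0376, and with identical names merged miR-26a-5p was at 0.00674. Leaving out 1 library gave ranges of -0.15 to 0.00177 for miR-126a-3p, -0.137 to 0.0137 for miR-26a-5p, -0.27 to 0.235 for miR-466i-5p, -0.447 to 0.401 for miR-155-5p, -0.185 to 0.076 for miR-669c-5p and -0.565 to 0.00381 for miR-338-3p. Depth limits what can be said of strands near 3 CPM.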

Other observations

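Beyond the lists, hairpins within 10 kb of each other on the same strand were grouped, and the following were picked after their values were seen. MiR-221 and miR-222, neighbours on the X chromosome (chrX:19146294-19146971) that target the cell-cycle inhibitor Cdkn1b, had their main strands higher with the 5-mutation hairpin. MiR-221-3p was at 443, 402, 367 and 386 CPM with shRNA_2bp and at 937, 920, 942 and 999 CPM with shRNA_5bp (1.25 ± 0.076, adjusted p = 2.99e-14). MiR-222-3p rose from 413 ± 47.0 to 819 ± 29.4 CPM (0.99 ± 0.073), and the minor strand miR-221-5p did not pass. The pair miR-103-3p and miR-107-3p, which share a seed and lie in introns of the pantothenate kinase genes, rose by 0.83 ± 0.102 and 0.74 ± 0.117. MiR-760-3p was at 193 ± 17.5 and 555 ± 43.4 CPM (1.51 ± 0.079), against 1497 ± 93.5 CPM with the empty vector.

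Another group on the X chromosome (chrX:7237683-7248497, from miR-500 to miR-532) had 4 of 6 strands with a matched sequence higher and 0 lower, among them miR-188-5p (1.86 ± 0.321). The counts of this group and the next stand beside 36.9% higher and 22.8% lower among all tested miRNAs. The group of miR-322, miR-450a and miR-503 (chrX:53048154-53054349) had 3 of 3 lower, with miR-322-3p at 25.9 ± 4.21 and 11.9 ± 4.97 CPM (-1.02 ± 0.237). Of a cluster on chromosome 6 miR-182-5p and miR-183-5p rose by 0.65 ± 0.157 and 0.62 ± 0.11, while miR-96-5p, its neighbour, at 3.11 ± 1.30 and 6.21 ± 1.77 CPM, did not pass (adjusted p = 0.0546).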
